A study of Mus musculus with 4 samples.

Results

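Gene expression in the gastrocnemius muscle of tumor-bearing mice was compared with and without high-intensity treadmill exercise. The cancer exercise library [E(+)T(+)] was set against the cancer control library [E(−)T(+)]. Of 23282 gene rows in the deposited tables, 12485 reached a normalized read count of 16 in either or both of these 2 libraries and formed the comparison. The other 10797 rows were below that level in both and were not compared. Each difference is the deposited log2 value of cancer exercise minus that of cancer control, so that a positive value means a higher level with exercise. Where values of all 4 libraries are given, they come in pairs, first without and then with a tumor, and in each pair the control library precedes the exercise library.

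The study crossed exercise (E) and tumor (T) in CDF1 mice, a hybrid laboratory strain, and the labels give postnatal day 28 as the age in every group. The methods give about that age for the mice when they were bought and place tissue collection at the end of the experiment, weeks later. By the methods the mice were thus older than the label age when muscle was taken. The tumor was raised by injecting CT26 cells, a murine colorectal cancer line, through the tail vein, and exercise was forced running on a treadmill. Normal control [E(−)T(−)] and normal exercise [E(+)T(−)] mice carried no tumor and are used here only to place the levels of the tumor libraries. The sources give 10 mice per group, male according to the methods, yet the results text speaks of a representative mouse per group, so that the number of animals behind each library was not settled. With 1 library per group, no difference below has a replicate check and no p-value is given. The paper reports less tumor growth in exercised mice, and lower food intake and body weight with cancer but not with exercise. In this pair of libraries exercise therefore cannot be told apart from tumor load and feeding. Phrases such as lower with exercise name the library and not a cause.

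Skeletal muscle loses protein in cancer cachexia when the ubiquitin-proteasome system and the autophagy-lysosome system degrade contractile proteins faster than ribosomes replace them. Both systems are driven in large part by FoxO transcription factors, which are held back by insulin and IGF signalling and released by glucocorticoids, inflammatory cytokines and myostatin-activin signalling. Endurance training is known for mitochondrial biogenesis through PGC-1 coactivators, shifts among fibre types and turnover of damaged organelles.

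Libraries were made with QuantSeq, which primes from the poly(A) tail and sequences the last stretch of a transcript, so counts do not grow with transcript length. The 4 libraries held 10647511 to 13225957 reads after the counts behind the deposited values were rebuilt. All 12 listed muscle fibre markers had reads in every library, and their summed normalized count was 1142980 for cancer control against 1296680 for cancer exercise. Hemoglobin rows took 2.76% of the reads of cancer control and 5.81% of those of cancer exercise. In a whole-muscle library, fewer cells of a type and less RNA per cell cannot be told apart.

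Of the 12485 rows, 1548 (12.4%) were at least 2-fold higher and 1418 (11.4%) at least 2-fold lower in cancer exercise, so 23.8% passed 2-fold in either direction. In the sections that follow, rose and fell are used of genes past this 2-fold line, and a list of genes is read against these shares, against the 50.2% of rows above and 49.7% below 0 by any amount, and against the median difference of 0.005. The 95% exact (Clopper-Pearson) interval given with a gene covers the counting of reads and nothing else. It excluded 0 for 67.2% of all rows, including 1532 of those that rose and 1393 of those that fell. Among the 2095 rows with a normalized count of at least 1000 in 1 of the 2 libraries, 97 rose and 123 fell. The 2-fold line passed between Derl2 at 1.001 and Pip4k2b at 0.999 on the higher side.

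**Figure D1:**
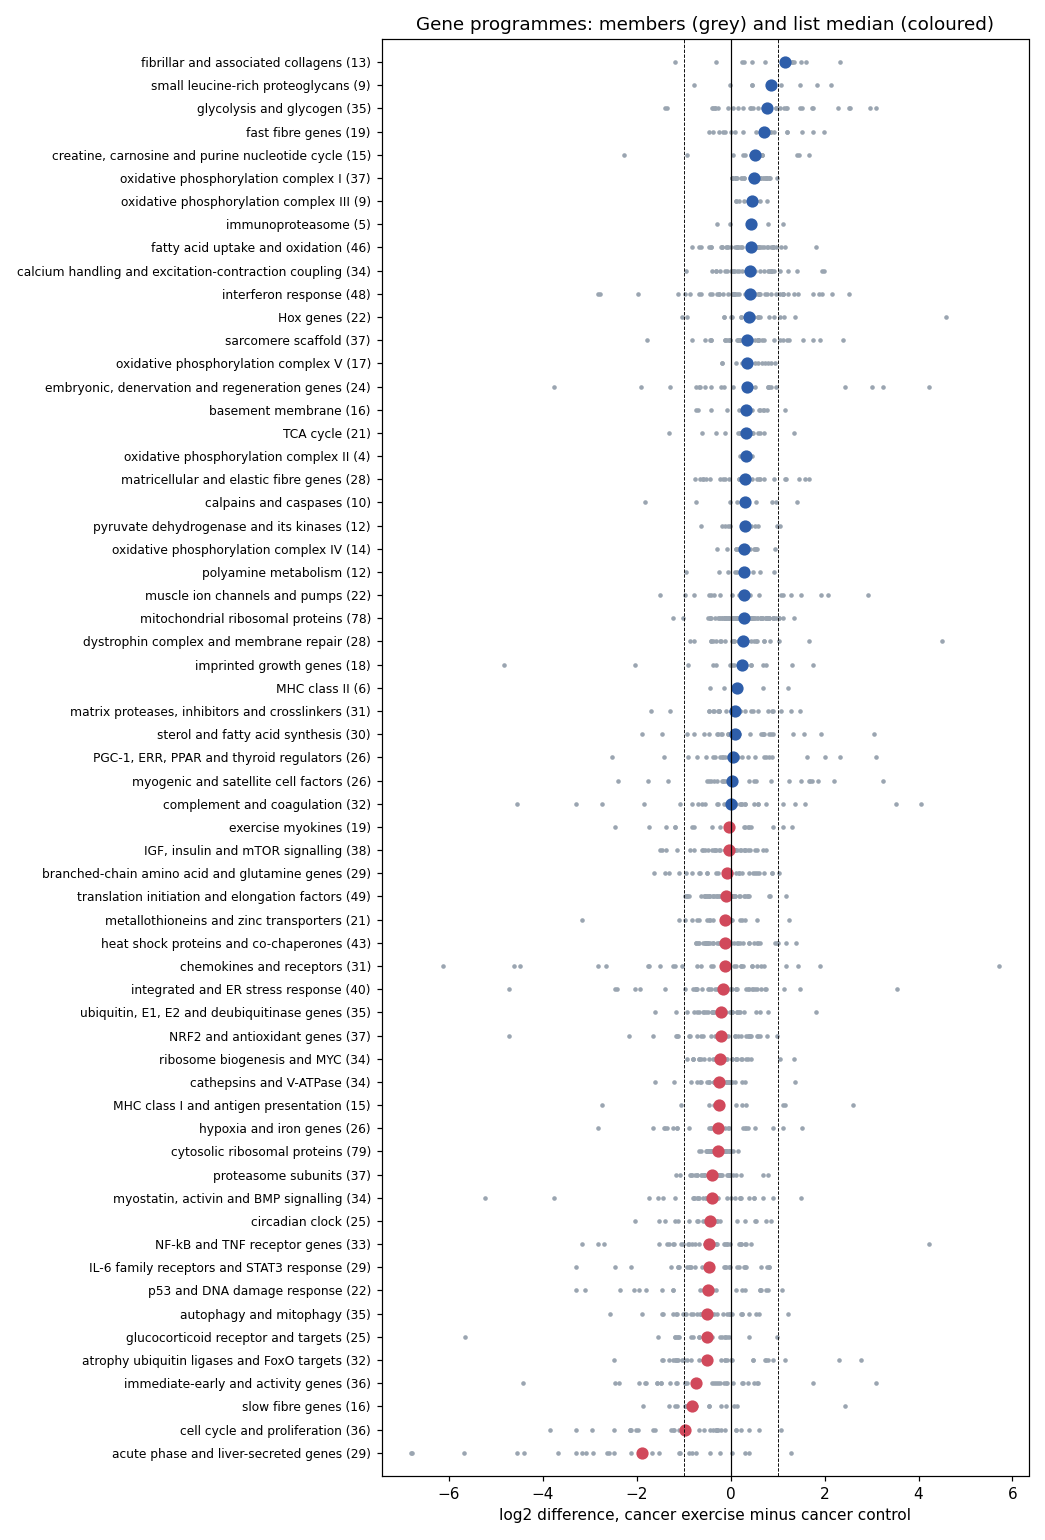
Log2 difference between cancer exercise and cancer control (horizontal axis) for the tested members (grey points) and the median (coloured point) of 61 gene lists, with the number tested in brackets and dashed lines at the 2-fold line. Lists of protein breakdown, slow fibre, stress response, acute phase and cell cycle genes have medians below 0, and lists of collagens, glycolysis, fast fibre, oxidative phosphorylation and calcium handling genes have medians above 0.

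Muscle atrophy genes were lower with exercise under tumor load. Of 32 tested genes of the atrophy and FoxO list (35 listed), 11 fell, 3 rose and 11 were above 0 by any amount, with a median of -0.51. Fbxo32, the ubiquitin ligase atrogin that tags contractile and regulatory proteins, had normalized counts of 3575 and 812 without a tumor and 37250.2 and 18103 with it (log2 difference -1.04, 95% interval -1.07 to -1.01). Trim63, its partner MuRF, stood at 5950.3 and 1828 without a tumor and 93779.5 and 41938 with it (log2 difference -1.16). For both ligases the cancer control library was the highest of the 4, the cancer exercise library was second, and both tumor libraries lay above both libraries without a tumor. Foxo1, a transcription factor that drives these ligases, had counts of 629.8 and 513 without a tumor and 3278 and 1499 with it and fell by 1.13 on the log2 scale. Fbxo30, a ligase tied to BMP signalling in atrophy, fell from 268 to 97.5, and Sesn1, a stress-induced brake on mTOR, from 3627 to 1312. Trim63 and Asb2 are among 13 named examples of the genes that the study picked from these libraries, so their direction is no independent evidence, and other genes given here may also have been picked. Not every member moved the same way. Asb2, a ligase that limits muscle mass, rose from 983 to 4884, and Trim55, a relative of Trim63 at the sarcomere, from 7.56 to 57.4, with a wide interval of 1.79 to 4.32.

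Trim63 is shown by its promoter because it is the most abundant ligase of the list. The 250 bases before the annotated start hold 1 match to the FoxO motif GTAAACA (searched on both strands), here in capitals as its reverse complement and 194 bases before the start (RefSeq, GRCm38.p6, plus strand, chr4:134314870-134315119).
Trim63: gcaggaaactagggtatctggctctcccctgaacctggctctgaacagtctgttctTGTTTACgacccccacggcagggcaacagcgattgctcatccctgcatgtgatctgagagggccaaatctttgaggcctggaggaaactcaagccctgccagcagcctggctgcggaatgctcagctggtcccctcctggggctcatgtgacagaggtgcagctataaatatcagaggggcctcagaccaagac
Promoters were found for 23 of the 32 tested members, and 3 of these (13%) held the motif, which were Trim63, Mdm2 and Eda2r. Of 27025 mouse genes with a promoter in the table, 3.54% held it. The median difference was -0.59 for members with the motif and -0.51 for members without it. A match is a description of letters and does not show that a factor binds there.

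Proteasome subunits were lower as a family, by small amounts. All 37 listed subunits were tested, 32 were below 0 and the median was -0.39, while 2 fell and none rose. Psma2, a subunit of the core particle, had counts of 3533 and 4924 without a tumor and 10418 and 4636 with it. Psmc4, an ATPase of the cap, had counts of 564 and 1157 without a tumor and 3912 and 1838 with it. Psmd4, the ubiquitin receptor and one of the most abundant subunits, stood at 18279 in cancer control against 12304 in cancer exercise (log2 difference -0.57, short of 2-fold). The assembly chaperone Psmg2 was the highest member at 0.80. Against normal control, the family median was 0.32 after exercise alone, 1.22 with a tumor alone and 0.81 with both. The immunoproteasome list holds core subunits and a regulator cap induced by interferon. Of its 5 genes, 3 were above 0 and 2 below, with a median of 0.44, and Psmb8 rose from 101 to 219.

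Among ubiquitin, conjugating enzyme and deubiquitinase genes, 2 of 35 tested fell, 1 rose and the median was -0.2. Rps27a, which encodes ubiquitin fused to a ribosomal protein, differed by -0.20. Uchl1, a deubiquitinase known from neurons, rose from 15.04 to 55.2.

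Autophagy genes were lower. Of 35 tested, 8 fell, 1 rose and 27 were below 0, with a median of -0.5, where 11.4% of all rows fell. Gabarapl1, a ubiquitin-like protein of the autophagosome membrane, had counts of 783 and 646 without a tumor and 7696 and 2063 with it. Ulk1, the kinase that starts autophagy, went from 2848 to 1037, Bnip3, a mitophagy receptor, from 16646 to 7086, and the cargo receptor Sqstm1 from 19728 to 8846. Calcoco1, a receptor for parts of the endoplasmic reticulum, stood at 899 and 698 without a tumor and 6974 and 2573 with it. In Gabarapl1, Ulk1, Bnip3, Sqstm1 and Calcoco1 cancer control was the highest library and cancer exercise lay above both libraries without a tumor. Tfeb, the transcription factor that switches on lysosome genes, rose from 122 to 286, against the direction of most of the list.

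Lysosomal genes differed less. Of 34 cathepsin and proton pump genes, 2 fell, 1 rose and 28 were below 0, with a median of -0.24. Ctsl, the cathepsin most tied to muscle wasting, had the largest fall of the list, at 1348 and 1365 without a tumor and 13757 and 4522 with it. Ctsd, a more abundant cathepsin, was at 14341 in cancer control against 12051 in cancer exercise (log2 difference -0.25). Among 10 calpains and caspases, Capn3, the muscle calpain bound to titin, rose from 276 to 738.

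**Figure D2:**
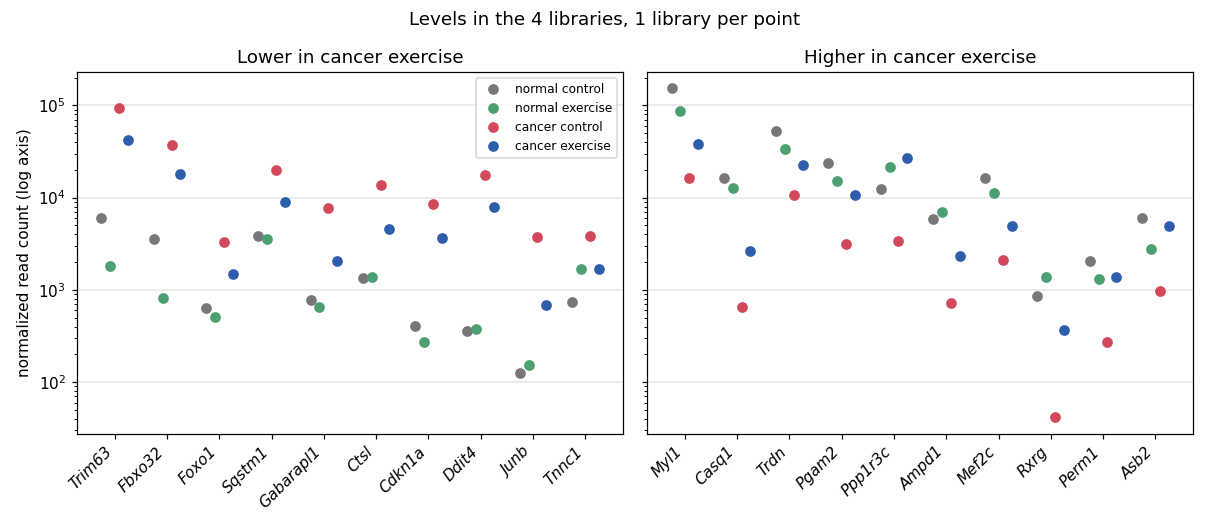
Normalized read counts (vertical log axis) of 20 named genes in the 4 libraries, 1 point per library, with genes that fell in the left panel and genes that rose in the right panel. The 20 genes were picked by hand, so the pattern they share does not describe all genes that fell or rose. In the left panel cancer control is the highest library for all 10 genes, and in the right panel it is the lowest for all 10. Myot, which also rose but is not shown, was not lowest in cancer control.

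Slow fibre genes were lower and fast fibre genes higher in cancer exercise. In the slow list, 4 of 16 tested genes fell, 1 rose and 13 were below 0 (median -0.83). Tnnc1 and Myl6b, which the study had picked from these libraries, are among the falls. Myl3, the essential light chain of slow myosin, had counts of 3458 and 4652 without a tumor and 6130.4 and 2474 with it. Myl2, its regulatory light chain, was at 1281 and 3157 without a tumor and 4585 and 2079.9 with it. Normal exercise lay above normal control for both light chains, and cancer exercise lay below cancer control. Tnni1, the slow inhibitory troponin, was at 1519 in cancer control against 775 in cancer exercise and just missed 2-fold (log2 difference -0.97). Csrp3 and Ankrd2, stretch-responsive proteins of the slow list, differed by -0.20 and 0.14 and stood high in both tumor libraries, Ankrd2 at 819.9 and 1860.2 without a tumor and 19809.8 and 21753 with it. Sln, which encodes sarcolipin, an uncoupler of the calcium pump, rose against the list from 189.5 to 1029.

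In the fast list, 5 of 19 genes rose, none fell and 14 were above 0 (median 0.7). Myl1, the fast essential light chain, had counts of 152769 and 86115 without a tumor and 16394 and 37666 with it. Mylpf, the fast regulatory light chain, had counts of 240553 and 164074 without a tumor and 59104 and 111369 with it (log2 differences 1.20 and 0.91). Casq1, the calcium store of fast fibres, rose from 659 to 2626. The fast myosin heavy chain Myh4 did not follow, at 195389 in cancer control against 141947 in cancer exercise (log2 difference -0.46), nor did the troponins Tnnt3 (0.01) and Tnni2 (0.10). For Myl1, Mylpf and Casq1 both tumor libraries lay below both libraries without a tumor.

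Sarcomere scaffold genes were higher for 25 of 37, with 8 rising and 1 falling (median 0.34). Ldb3, a Z-disc protein that anchors actinin, had counts of 17596 and 17055 without a tumor and 4553 and 17067 with it. Lmod3 and Tmod4, which set the length of thin filaments, rose from 395 to 1326 for Lmod3 and from 1081 to 3149 for Tmod4. Myot, a Z-disc crosslinker, was at 4175 and 4036 without a tumor and 4734 and 11143 with it, and here cancer exercise was the highest of the 4 libraries. Acta1, the skeletal actin, stood at 134849 in cancer control against 204111 in cancer exercise (log2 difference 0.60), and the giant proteins Ttn and Neb differed by 0.31 and 0.14. Myom3, an M-band protein of slow fibres, was the only scaffold gene to fall, from 556 to 160.3.

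Calcium handling genes were above 0 in 26 of 34, with 5 rising and none falling (median 0.42). Besides Casq1, these were the junctional proteins Trdn and Asph, the kinase Camk2a and Sypl2, which shapes the triad. Trdn, or triadin, had counts of 52644 and 33248 without a tumor and 10764 and 22272 with it. Sypl2 had counts of 3612 and 2522 without a tumor and 140.3 and 543 with it. Pvalb, the calcium buffer of the fastest fibres, was at 246119 and 152769 without a tumor and 13539.6 and 24439.7 with it (log2 difference 0.85, short of 2-fold) and lay far below the tumor-free level in both tumor libraries. Neither calcium pump passed 2-fold, with differences of -0.13 for Atp2a1 of fast fibres and -0.95 for Atp2a2 of slow fibres.

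Ion channel and pump genes were higher in part. Of 22 tested, 7 rose and 1 fell, where 12.4% of all rows rose, and 7 were below 0 by any amount. The summed count of the 24 listed went the other way, at 48278 in cancer control against 40993 in cancer exercise. Clcn1, the chloride channel that keeps the resting membrane stable, had counts of 298 and 326 without a tumor and 13.98 and 113 with it, and Slc8a3, a sodium-calcium exchanger, rose from 18.3 to 80.2. In the dystrophin complex and membrane repair list, 3 of 28 rose and none fell, so that the share that rose was no higher than the 12.4% of all rows. They were Sspn (sarcospan), from 183 to 586, Cav3 (muscle caveolin), from 329 to 670.4, and Aqp4, the water channel of fast fibres. Aqp4 had 0 reads in cancer control and 21 in cancer exercise, at least 7.08-fold higher at a floor of 3 reads, and counts of 317 and 192 in the tumor-free libraries. The core member Dag1, dystroglycan, differed by -0.24.

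In the embryonic, denervation and regeneration list, which holds genes of the neuromuscular junction, 4 of 24 rose and 3 fell. These shares were near the 12.4% of all rows that rose and the 11.4% that fell, so the genes below are single cases. Chrna9, a nicotinic receptor subunit, had 0 and 0 reads without a tumor and 25 and 207 with it, so that it was found in the tumor libraries alone, and its count rose with exercise. Dok7, an adaptor that clusters receptors, rose at least 5.73-fold, with 0 reads in cancer control and 17 in cancer exercise. Gdf5, a BMP ligand that rises in denervated muscle, had 40 reads in cancer control and 2 in cancer exercise. Colq, which anchors acetylcholinesterase, had 18 reads in cancer control and 4 in cancer exercise. Ankrd1, a stress gene of the embryonic and denervation list, was at 102 and 352 without a tumor and 5249 and 3928 with it and did not pass 2-fold.

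Myogenic transcription factors split by gene. Of 26 tested, 8 rose and 3 fell around a median of 0.02. Myod1, which commits cells to muscle, had counts of 306 and 289 without a tumor and 21.5 and 213 with it. Myf6, the member of the same family kept on in adult fibres, was at 801 and 659 without a tumor and 388 and 1298 with it. Mef2c, their partner, was at 16157 and 11143 without a tumor and 2102 and 4941 with it. Myf5, a marker of satellite cells, rose from 6.48 to 33.5 with an interval of 1.10 to 3.94. For Myod1, Mef2c and Myf5 cancer control was the lowest library. Eya4, a transcriptional coactivator, fell from 61.99 to 10.9, while the fibre-type cofactor Vgll2 differed by 0.02, within counting error of 0.

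Oxidative phosphorylation genes were higher across complexes, each by less than 2-fold. Of 81 tested subunits, 77 were above 0, none passed 2-fold in either direction, and the median was 0.42. All 37 subunits of complex I were above 0 (median 0.49), as were all 4 of complex II (0.32) and all 9 of complex III (0.46), 12 of 14 of complex IV (0.29) and 15 of 17 of complex V (0.34). In complex I the highest difference was that of Ndufc1, with counts of 11425 and 9540.5 without a tumor and 3242 and 6391 with it. Ndufb5, an abundant accessory subunit, was at 15542 and 15705 without a tumor and 10155 and 18103 with it and so had its highest value in cancer exercise. Uqcrq of complex III was at 13776 in cancer control against 19003 in cancer exercise. Cox7a1, the muscle form of its subunit in complex IV, was at 2253 in cancer control against 4329 in cancer exercise (log2 difference 0.94). Atp5k of complex V was at 4652 in cancer control against 8895 in cancer exercise. Against normal control, the median over the 81 subunits was -0.3 after exercise alone, -0.64 with a tumor alone and -0.17 with both. Scaled to total reads, which moved the median of all rows to -0.067, the complex I median was 0.43.

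Genes feeding the respiratory chain were higher as well, with few past 2-fold. In the TCA cycle list 17 of 21 were above 0 (median 0.33). Idh3a, a subunit of the NAD-dependent isocitrate dehydrogenase, rose from 1391 to 3533, and Got1, the cytosolic aspartate aminotransferase, fell from 8634 to 3477. Mpc2, the mitochondrial pyruvate carrier, was at 3125 in cancer control against 6220.3 in cancer exercise (log2 difference 0.99), and Dlat, a core enzyme of pyruvate dehydrogenase, rose from 514 to 1070.2. Fatty acid genes were above 0 in 34 of 46, with 3 rising and none falling (median 0.43). Among these, Ucp3, an uncoupling protein, rose from 251 to 562, and Lipe, the hormone-sensitive lipase, from 111 to 396. Acadl, a long-chain dehydrogenase, was at 4591 in cancer control against 4598 in cancer exercise.

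Glycolysis and glycogen genes held the largest share of rises among the energy lists, 13 of 35, with 2 falls and a median of 0.78. Ppp1r3c, which directs phosphatase to glycogen and favours its synthesis, had counts of 12296 and 21246 without a tumor and 3417 and 26578 with it. Pgam2, the muscle phosphoglycerate mutase, stood at 23689 and 15275 without a tumor and 3140.0 and 10608 with it. Eno3, the muscle enolase, was at 40313 and 27745 without a tumor and 6126 and 17535 with it. Slc16a3, the lactate exporter, rose from 339.6 to 1955, Stbd1, which tethers glycogen to membranes, from 63.3 to 371, and Gpd1, of the glycerol phosphate shuttle, from 197 to 966. For Pgam2, Eno3 and Gpd1 both tumor libraries lay below both tumor-free libraries, whereas Ppp1r3c was highest in cancer exercise. Aldoa, the most abundant enzyme of the list, was at 120526 in cancer control against 206960.0 in cancer exercise. Pygm, muscle glycogen phosphorylase, was at 23509 in cancer control against 35388 in cancer exercise, both short of 2-fold. The falls were Slc2a1, the basal glucose transporter, from 571 to 221, and Pfkfb3, an activator of phosphofructokinase, from 5665 to 2158.

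Pgam2 is shown as a fast fibre and glycolysis gene with a match to the muscle E-box CAGCTG (both strands), in capitals 125 bases before its start (RefSeq, GRCm38.p6, minus strand, chr11:5803797-5804046).
Pgam2: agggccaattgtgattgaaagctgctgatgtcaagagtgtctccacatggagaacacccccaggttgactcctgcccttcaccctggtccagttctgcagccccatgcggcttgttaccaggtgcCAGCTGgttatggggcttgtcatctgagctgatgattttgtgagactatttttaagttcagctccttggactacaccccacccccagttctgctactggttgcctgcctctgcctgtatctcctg
The E-box stood in 6 of 13 matched fast fibre promoters (46.2%), 8 of 19 of the calcium list (42.1%), 11 of 32 of the glycolysis list (34.4%) and 9 of 29 of the sarcomere scaffold list (31.0%). Of all promoters, 14.7% held it. In the fast list the median difference was 1.06 with the motif and 0.7 without, and in the glycolysis list 0.75 and 0.78.

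**Figure D3:**
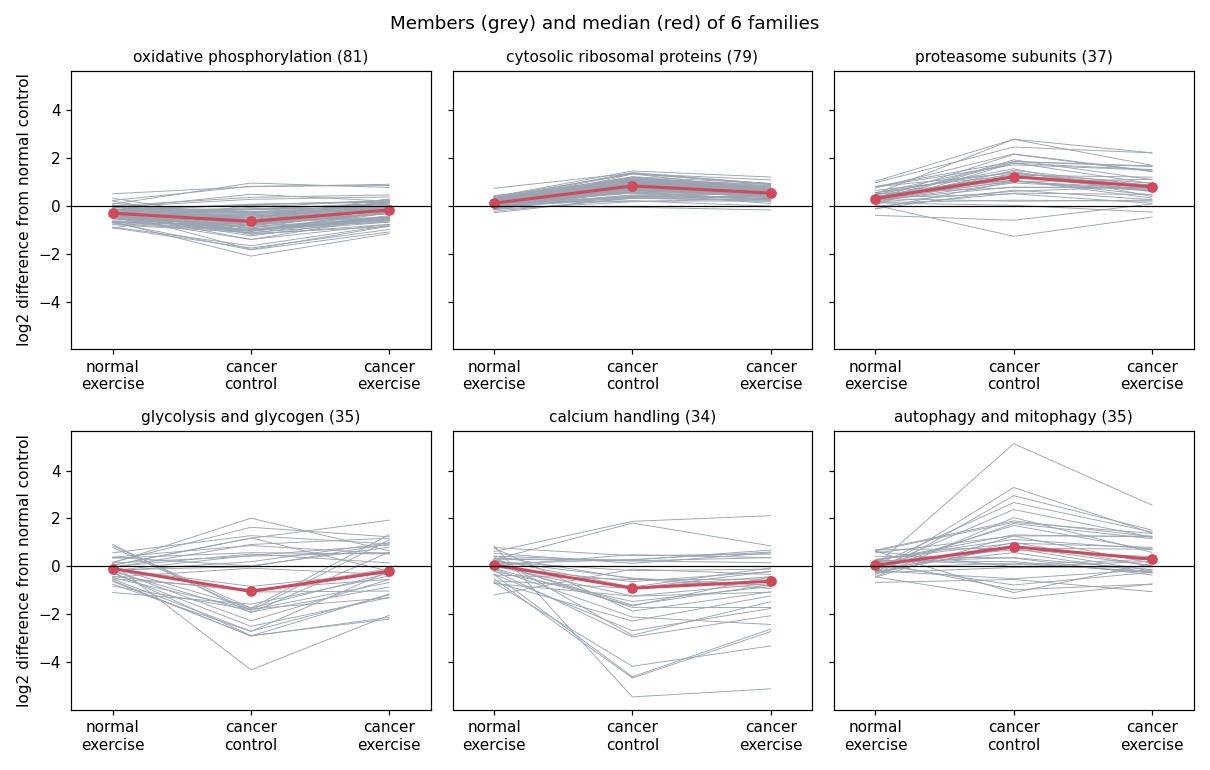
Log2 difference of each library from normal control (vertical axis) for the members (grey lines) and the median (red) of 6 families, with the number of genes in brackets. In cancer exercise the oxidative phosphorylation, glycolysis and calcium handling medians lie at -0.17, -0.21 and -0.63, against -0.64, -1.05 and -0.91 in cancer control, and the ribosomal protein, proteasome and autophagy medians at 0.54, 0.81 and 0.29, against 0.84, 1.22 and 0.82. Cancer control enters every difference between the tumor libraries, so its distance from normal control and its distance from cancer exercise are not independent.

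The high-energy phosphate and carnosine list was above 0 in 13 of 15, with 3 rises and 1 fall. Ampd1, the muscle AMP deaminase, had counts of 5922 and 7008 without a tumor and 726 and 2316 with it. Ak1, adenylate kinase, had counts of 10498 and 9203 without a tumor and 1270.2 and 3496 with it. Ampd3, the isoform of other tissues, went the other way with 35.2 and 84.9 without a tumor and 1128 and 234 with it, so that the pair of deaminases moved in opposite directions. Ckm, muscle creatine kinase, was at 66542 in cancer control against 94891 in cancer exercise. Mb, myoglobin, was at 7165 in cancer control against 11330.1 in cancer exercise, both under 2-fold.

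Regulators of oxidative metabolism did not move as a block. Of 26, 4 rose, 2 fell and 13 were above 0. Rxrg, a retinoid receptor, had counts of 867 and 1389 without a tumor and 41.8 and 366 with it. Perm1, a muscle regulator downstream of PGC-1, had counts of 2067 and 1307 without a tumor and 273 and 1383 with it. Ppargc1b rose from 62.2 to 194 and Prkag3, the glycolytic-fibre subunit of AMP kinase, from 31.1 to 129. Dio2, the enzyme that activates thyroid hormone, fell from 329 to 56.4. Prkaa2, the catalytic subunit of muscle AMP kinase, differed by 0.14 and the corepressor Ncor1 by -0.07.

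Ribosomal protein genes of the cytosol and of mitochondria pointed in opposite directions. Of 79 cytosolic genes, 77 were below 0, none passed 2-fold and the median was -0.27, within a narrow range from -0.69 for Rpl3 to 0.15. Rplp1, of the ribosomal stalk, was at 29716 and 33339.8 without a tumor and 56227 and 43027 with it. Rps20 was at 12997 and 17008 without a tumor and 35956 and 30131 with it. Both had their highest value in cancer control. Of 78 mitochondrial ribosomal genes, 57 were above 0 (median 0.28), 4 rose and 2 fell. Mrpl42 and Mrpl39 rose, from 2168 to 4672 for Mrpl42 and from 207 to 531 for Mrpl39, and Mrpl41 fell from 1244 to 611. Ribosomal protein genes have many processed copies in the genome, and how reads that match several places were counted is not given in the sources used here.

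Translation factors had a median of -0.11 over 49 tested genes, with 1 rise and no fall. Eif3a, a scaffold of initiation, was at 10375 in cancer control against 5411 in cancer exercise (log2 difference -0.94). Eif4g1, which bridges cap and ribosome, was at 3389 in cancer control against 1786 in cancer exercise. Eif4ebp1, a repressor of cap-dependent translation, stood at 1107 and 1188 without a tumor and 13596 and 13891 with it, high in both tumor libraries and nearly equal between them. Eef2k, the kinase that slows elongation, rose from 182 to 414. In the ribosome biogenesis list 22 of 34 were below 0 (median -0.22). Ncl, nucleolin, was at 14683 in cancer control against 9133 in cancer exercise. Npm1, nucleophosmin, was at 5692 in cancer control against 3264 in cancer exercise, while Polr1a, the large subunit of RNA polymerase I, rose from 114 to 292.

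**Figure D4:**
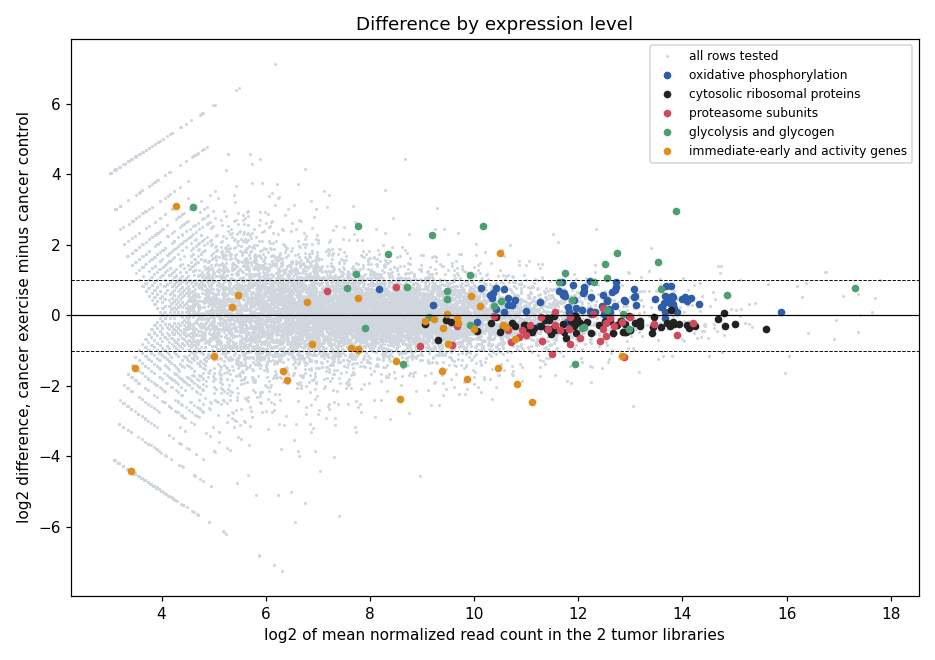
Log2 difference between cancer exercise and cancer control (vertical axis) against the log2 mean normalized count of the 2 libraries (horizontal axis) for the 12485 rows tested (grey) and 5 lists (coloured), with dashed lines at the 2-fold line. Oxidative phosphorylation genes form a band above 0, ribosomal protein and proteasome genes bands below 0, glycolysis genes reach 3.08, and the straight rows at low counts are genes with very few reads in 1 library.

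Immediate-early genes, which respond within minutes to contraction or stress, were lower. Of 36 tested, 13 fell, 2 rose and 27 were below 0 (median -0.74), and the falls include Fos, Maff and Ifrd1, which the study had picked from these libraries. Junb, a partner of Fos in AP-1, had counts of 124 and 154 without a tumor and 3742 and 681 with it. Sik1, a kinase induced by activity, had counts of 47.9 and 41.99 without a tumor and 638 and 121 with it. Btg2, an antiproliferative gene, was at 122 and 102 without a tumor and 2861 and 739.8 with it. Ifrd1 was at 1070.2 and 2401 without a tumor and 10043 and 4559.6 with it. For these 4 genes cancer control was the highest library and cancer exercise lay above the tumor-free libraries. Fosb had 20 reads in cancer control and 0 in cancer exercise. Dusp2, a phosphatase of MAP kinases, rose, with 3 reads in cancer control and 33 in cancer exercise. Jun, named after its values were seen, rose from 661 to 2231, so that the AP-1 genes did not move together.

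Targets of p53 and DNA damage genes fell in 9 of 22, against 1 rise (median -0.48). The list shares Cdkn1a, Sesn1, Mdm2, Gadd45a and Eda2r with the atrophy list and Btg2 with the immediate-early list. Cdkn1a, the p21 inhibitor of the cell cycle, had counts of 404 and 272 without a tumor and 8598 and 3668 with it. Trp53inp1, a p53-induced autophagy protein, was at 190.5 and 160.3 without a tumor and 1964 and 560.1 with it. Gadd45g, a growth arrest gene, was at 498 and 248 without a tumor and 2188 and 422 with it. In Cdkn1a and Trp53inp1 both tumor libraries stood above both tumor-free libraries, while Gadd45g in cancer exercise lay within the tumor-free range. Bbc3, the PUMA death factor, went from 166 to 39.03. Ccng1, also a p53 target, rose from 1620.4 to 3439. Perp, an epithelial member of the list, fell from 148 to 16.3, and it is also 1 of the epidermal markers, which stood highest in cancer control.

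Glucocorticoid-responsive genes were below 0 in 23 of 25, with 7 falls and no rise (median -0.51). Foxo1, Klf15, Cebpd, Ddit4, Pdk4, Mt1 and Mt2 are also in the atrophy list. Per1 is in the clock list too, and Dusp1 and Ctgf in the immediate-early list, so these lists are not independent of each other. Klf15, a glucocorticoid-induced factor of amino acid catabolism, had counts of 187 and 41.99 without a tumor and 1332 and 586 with it. Ddit4, which restrains mTOR, had counts of 359.5 and 380.1 without a tumor and 17486 and 7874 with it. Errfi1, a feedback inhibitor of EGF receptors, fell from 1509.7 to 516 and Glul, glutamine synthetase, was at 22226 in cancer control against 15726 in cancer exercise. Mt1, a metallothionein induced by glucocorticoids and metals, was at 1293 and 1383 without a tumor and 151924 and 94759.6 with it. Mt2, its neighbour and close relative, was at 727 and 731 without a tumor and 101914 and 71814 with it. Their differences of -0.68 and -0.51 were under 2-fold beside tumor libraries far above both tumor-free libraries. Tat, tyrosine aminotransferase of liver, had 49 reads in cancer control and 0 in cancer exercise.

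Circadian clock genes were lower in 19 of 25, with 5 falls and no rise (median -0.45). Cry2, a repressor of the clock, had counts of 146 and 209 without a tumor and 1743 and 424 with it. Per1, another repressor and a glucocorticoid target, was at 41.5 and 45.2 without a tumor and 649 and 286 with it. Nr1d1, the REV-ERB repressor, was at 149 and 461 without a tumor and 1327 and 503 with it. Cancer control was the highest library for all 3, and cancer exercise came second. Rora, an activator that opposes REV-ERB, differed by -0.45. The time of day of tissue collection is not given in the sources used here, and its part in these differences was not tested. Ciart, a clock repressor that fell from 170.1 to 58.5, is shown because 3 matches to the clock E-box CACGTG (a palindrome, in capitals) lie in the 250 bases before the start in the RefSeq promoter table, 116, 58 and 44 bases upstream of it (GRCm38.p6, minus strand, chr3:95882229-95882478). That start lies 29 bases inside the outer bound of the annotated gene.
Ciart: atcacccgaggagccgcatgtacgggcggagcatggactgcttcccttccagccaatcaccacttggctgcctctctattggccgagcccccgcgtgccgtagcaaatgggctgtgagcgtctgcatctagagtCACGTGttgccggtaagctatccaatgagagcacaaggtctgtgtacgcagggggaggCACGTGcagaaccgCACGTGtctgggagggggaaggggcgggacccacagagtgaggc
The motif was found in 5 of 19 matched clock promoters (26.3%), those of Per1, Cry1, Tef, Bhlhe41 and Ciart, and in 6.86% of all promoters. Among cathepsin and proton pump genes, where the same letters are also known as a site of lysosomal gene regulators, 9 of 25 promoters (36.0%) held it, Ctsl and Ctsd included.

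Stress responses of the endoplasmic reticulum and of amino acid lack were mixed, with 6 falls and 3 rises among 40 (median -0.17). Ppp1r15a, which restarts translation after stress, had counts of 129 and 118 without a tumor and 2194 and 535 with it, and Atf4, the central factor of the integrated response, was at 9680.4 in cancer control against 5901 in cancer exercise. Serine synthesis genes Psat1 and Phgdh fell, Psat1 from 167 to 30.4, and the cystine transporter Slc7a11 had 25 reads in cancer control and 0 in cancer exercise. Aldh18a1, of proline synthesis, rose, with 1 read in cancer control and 22 in cancer exercise. Among 37 antioxidant genes 6 fell and none rose, among them Hmox1, heme oxygenase, from 239 to 74.7, and Txnip, a thioredoxin inhibitor, from 31937 to 14461. Sod1, superoxide dismutase, was at 20752 in cancer control against 12624 in cancer exercise. The hypoxia and iron list had 8 falls and 2 rises among 26. Its falls include Bnip3, Ddit4, Pfkfb3, Slc2a1 and Hmox1, which are counted in other lists as well. Hamp2, a hepcidin, had counts of 52.2 and 1929.8 without a tumor and 5366 and 1989.6 with it and was low in normal control alone, and Vegfa, the angiogenic factor, rose from 891 to 1922.

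Few heat shock genes passed 2-fold, with 2 rises and no fall among 43 (median -0.12). Hspb6, a small heat shock protein of muscle, had counts of 8134 and 13381 without a tumor and 23607 and 47183 with it and ended just under the 2-fold line. Dnajb4, a co-chaperone, rose from 372 to 978, and Hsp90ab1 was at 43147 in cancer control against 36509 in cancer exercise. In the list of metallothioneins and zinc transporters 2 of 21 fell and 1 rose.

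Signalling lists for growth gave differences in single genes. In the IGF, insulin and mTOR list 4 of 38 fell, none rose and the median was -0.03. Igfbp3, an IGF carrier, had counts of 331 and 215 without a tumor and 3823 and 1464 with it and Irs2, a docking protein for the insulin receptor, fell from 173 to 60.6. Akt1 was at 7611 in cancer control against 7296 in cancer exercise. H19, an imprinted noncoding RNA, was at 11236 in cancer control against 17990.2 in cancer exercise. In the myostatin, activin and BMP list 6 of 34 fell and 1 rose (median -0.41). Grem1, a BMP antagonist, had 0 and 0 reads without a tumor and 36 and 0 with it, and Inhba, an activin subunit, 16 reads in cancer control and 4 in cancer exercise. Id1, a BMP target, rose from 223 to 626. Smad4, the shared mediator, was at 1117 in cancer control against 770.2 in cancer exercise and did not pass 2-fold.

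Myokines, proteins that contracting muscle secretes, had 5 falls and 2 rises among 19 tested of 27 listed (median -0.03). Bdnf, a neurotrophin, fell from 101 to 17.4 and Fam132b, which encodes myonectin or erythroferrone, from 134 to 50.9. Vegfa and Il15 rose, Il15 from 48.2 to 120.3, and the study had picked Il15 from these libraries. Sparc, a matrix protein secreted on exercise, was at 16739 and 5212 without a tumor and 4374 and 3742 with it, lower in both tumor libraries and in normal exercise than in normal control. Among 29 genes of branched-chain amino acid and glutamine metabolism 4 fell and 1 rose. The falls were the transporters Slc7a8, from 665 to 212, and Slc7a5, from 75.96 to 28.2, and the transaminases Got1 and Gpt2, the latter from 1694 to 793. None of 12 polyamine genes passed 2-fold, and Smox, spermine oxidase of muscle, was at 2598 and 2861 without a tumor and 265 and 367 with it.

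Genes of inflammatory signalling were lower for the most part, and the activity of these pathways was not measured. In the NF-kB and TNF receptor list 10 of 33 fell, 1 rose and 25 were below 0 (median -0.46), and differences ran from -3.18 to 4.22. Nfkbib, an inhibitor of NF-kB, had counts of 832 and 1714 without a tumor and 8527 and 4075 with it and Nfkbia, another inhibitor, was at 6413 in cancer control against 4362 in cancer exercise. Tnfaip3 and Nfkbiz, both NF-kB targets, fell, Nfkbiz from 112 to 16.3 and Tnfaip3 from 68.4 to 8.73. In the IL-6 and STAT3 list 7 of 29 fell and none rose (median -0.46). Stat3 itself was at 1301 and 1949 without a tumor and 4743 and 2597 with it (log2 difference -0.87), its target Cebpd at 7648 in cancer control against 4281 in cancer exercise, and Socs2, a feedback inhibitor of growth hormone signalling, fell from 956 to 439. Stat3 and Cebpd were higher in both tumor libraries than in both tumor-free libraries.

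Acute phase and liver-secreted genes showed the lowest median of the 61 lists at -1.9, with 20 of 29 falling and 1 rising. Over the alternative scalings, pseudocounts and minimum levels the median lay between -2.14 and -1.32. Members such as Reg3g and Gc had 110 and 109 reads in cancer control and 0 in cancer exercise. They reached the minimum of 16 through cancer control, so the figures of this list are partly set by that minimum. Fgb, a fibrinogen chain, had counts of 29.8 and 7.14 without a tumor and 959 and 40.2 with it. Igfbp1, a secreted IGF carrier of liver, had 0 and 0 reads without a tumor and 311 and 5 with it. Cancer control was the highest library for both. Hpx, the heme scavenger, fell from 96.1 to 6.57. Saa1, serum amyloid A, fell from 908 to 207, though Saa1 and Saa2 are near-identical copies and the split of reads between them is uncertain. Serpina3n, a protease inhibitor that muscle also makes, was at 3662 in cancer control against 2054 in cancer exercise. Lrg1, a glycoprotein of the acute phase, stood at 2950.0 in cancer control against 3845 in cancer exercise. Liver markers moved with this list: all 6 tested of 10 fell (median -2.76, and -2.93 to -1.65 over the alternatives). Each of the 6 reached the minimum of 16 through cancer control, so their shared direction is partly set by that minimum. The summed count of the 10 was 564.6 and 162.9 without a tumor and 1032 and 160.8 with it. The part of liver RNA in the fall of this list was not tested.

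Chemokines and their receptors fell in 11 of 31 and rose in 4 (median -0.12). Cxcl5, a neutrophil attractant, had 68 reads in cancer control and 0 in cancer exercise. Cxcl2, with the same role, had 23 reads in cancer control and 0 in cancer exercise. Cxcl13, a B cell attractant, was at 64.9 and 100.3 without a tumor and 1476 and 2171 with it, high in both tumor libraries. Neutrophil markers, at a summed count of 127.1 in normal control and 239.0 in normal exercise, reached 4303 in cancer control and 2779 in cancer exercise, with 3 of 8 falling and 1 rising. Macrophage markers were at 10621 in cancer control and 11132 in cancer exercise, with 1 of 19 falling, Cd68, and 1 rising, Ccr2, named after their values were seen.

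Interferon-responsive genes were higher in part, with 12 of 48 tested rising, 4 falling and 33 above 0 (median 0.4). The rises included Igtp and Irgm1, GTPases that act on vacuoles of pathogens, Igtp from 16.1 to 75.9 and Irgm1 from 5.41 to 35.7, with 95% intervals of 1.42 to 3.15 and 1.37 to 4.45. Zbp1, a nucleic acid sensor, rose from 4.34 to 19.5. Cxcl10, Oasl1 and Gbp6 fell, Gbp6 from 110.3 to 27.1. Ifitm3, which blocks viral entry, and Irf1, a factor that responds to interferon, differed by -0.06 and 0.07. Igtp and Irgm1 are shown because both carry the interferon-stimulated response letters, TTTC, then 2 bases of any kind, then TTTC (both strands, in capitals as the reverse complement) close to the start, 34 bases before it in Igtp (plus strand, chr11:58199306-58199555) and 30 and 24 bases before it, in overlapping matches, in Irgm1 (minus strand, chr11:48871421-48871670, both RefSeq, GRCm38.p6).
Igtp: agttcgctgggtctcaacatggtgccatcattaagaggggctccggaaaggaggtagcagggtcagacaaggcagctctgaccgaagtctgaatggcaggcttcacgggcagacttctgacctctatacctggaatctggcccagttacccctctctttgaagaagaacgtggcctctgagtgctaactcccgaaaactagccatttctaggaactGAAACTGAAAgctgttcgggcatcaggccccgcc
Irgm1: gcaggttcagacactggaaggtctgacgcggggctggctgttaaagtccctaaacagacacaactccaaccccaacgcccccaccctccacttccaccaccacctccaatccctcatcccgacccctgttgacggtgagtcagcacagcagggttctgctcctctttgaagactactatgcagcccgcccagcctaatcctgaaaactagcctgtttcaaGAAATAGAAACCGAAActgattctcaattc
Of 37 matched promoters of the list, 17 (45.9%) held these letters, against 3.46% of all promoters. Members with the motif had a median difference of 0.58 and members without it 0.08.

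MHC genes did not share a direction. In class I, 3 of 15 tested rose and 2 fell. H2-K1 fell from 1183 to 569.9, H2-D1 was at 5728 in cancer control against 4717 in cancer exercise. B2m, the light chain, was at 5472 in cancer control against 4681 in cancer exercise. Class I genes are near-identical copies of each other, so the split of reads among them is uncertain. In class II, 1 of 6 rose, H2-DMa, and Cd74, the invariant chain, was at 945 and 1211 without a tumor and 283 and 295 with it, low in both tumor libraries. Complement and coagulation genes had 5 rises and 5 falls among 32. C5ar1, the receptor of the complement peptide, had counts of 55.3 and 64.9 without a tumor and 4.34 and 60.6 with it and Cfd, a complement factor made by fat cells, 12085 and 3642 without a tumor and 3739 and 8129 with it.

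Collagens were higher with exercise. Of 13 tested in the fibrillar and associated list, 7 rose, 1 fell and 11 were above 0 (median 1.16), and the rises include Col1a1, Col3a1 and Col5a2, which the study had picked from these libraries. Col6a3, of the sheath around fibres, had counts of 2185 and 1043 without a tumor and 104 and 524 with it. Col5a1, of fine fibrils, had counts of 739 and 249 without a tumor and 36.5 and 92.1 with it. Col1a2 was at 13178 and 2453 without a tumor and 574 and 789 with it and did not pass 2-fold. All 3 were far lower in both tumor libraries than in normal control. Among small leucine-rich proteoglycans, which space collagen fibrils, 4 of 9 rose and none fell (median 0.85), with Fmod, fibromodulin, from 47.2 to 209 and Lum, lumican, from 102 to 364. Dcn, decorin, the most abundant member, was at 35363 in cancer control against 34756 in cancer exercise.

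Other matrix genes differed less. In the matricellular list 5 of 28 rose and none fell (median 0.31), among them Thbs4, of tendon and muscle attachment, with 6038 and 3455 without a tumor and 1346 and 3714 with it. Sparcl1 was at 3829 in cancer control against 5637 in cancer exercise. Mgp, which inhibits mineral, was at 3752 in cancer control against 3635 in cancer exercise. In the basement membrane list 1 of 16 rose, Lama5, and Col4a1 was at 1611 in cancer control against 2215 in cancer exercise. Among proteases and inhibitors Timp1 fell from 154 to 46.6, Adamts2, which trims procollagen, from 599 to 245, and Timp4 was at 813 in cancer control against 1523 in cancer exercise. Fibroblast markers, which share Col1a1, Col1a2, Col3a1, Dcn and Lum with these lists, rose in 5 of 14 and fell in none, with a summed count of 51402 in cancer control and 58089 in cancer exercise. Pdgfra, the receptor that defines them, was named after its values were seen and stood at 321 in cancer control against 326 in cancer exercise.

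Cell cycle genes were lower, with 17 of 36 falling, 1 rising and 30 below 0 (median -0.98). Mki67, a marker of dividing cells, had 11 and 1 reads without a tumor and 57 and 3 with it. Top2a, the replicative topoisomerase, had counts of 20.2 and 12.8 without a tumor and 103 and 17.4 with it. Ccnd1, which carries cells into the cycle, had counts of 324 and 131 without a tumor and 776 and 176 with it. Cancer control was the highest library for Mki67, Top2a and Ccnd1, and cancer exercise lay within the range of the tumor-free libraries. The inhibitors Cdkn1b and Cdkn1c differed by -0.12 and -0.31. Most members were low in count, and the median lay between -1.05 and -0.38 over the alternative scalings, pseudocounts and minimum levels. Among imprinted growth genes 2 of 18 rose and 2 fell. Dlk1, a growth regulator, had 84 and 6 reads without a tumor and 27 and 0 with it, and Mest rose from 42.9 to 107. Hox genes, which record position along the body axis, were above 0 in 17 of 22, with 4 rises and 1 fall. Hoxd10, a gene of the hind limb, had 83 and 101 reads without a tumor and 2 and 70 with it, while its neighbours in the limb Hoxc10 and Hoxc9 differed by 0.21 and 0.34.

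**Figure D5:**
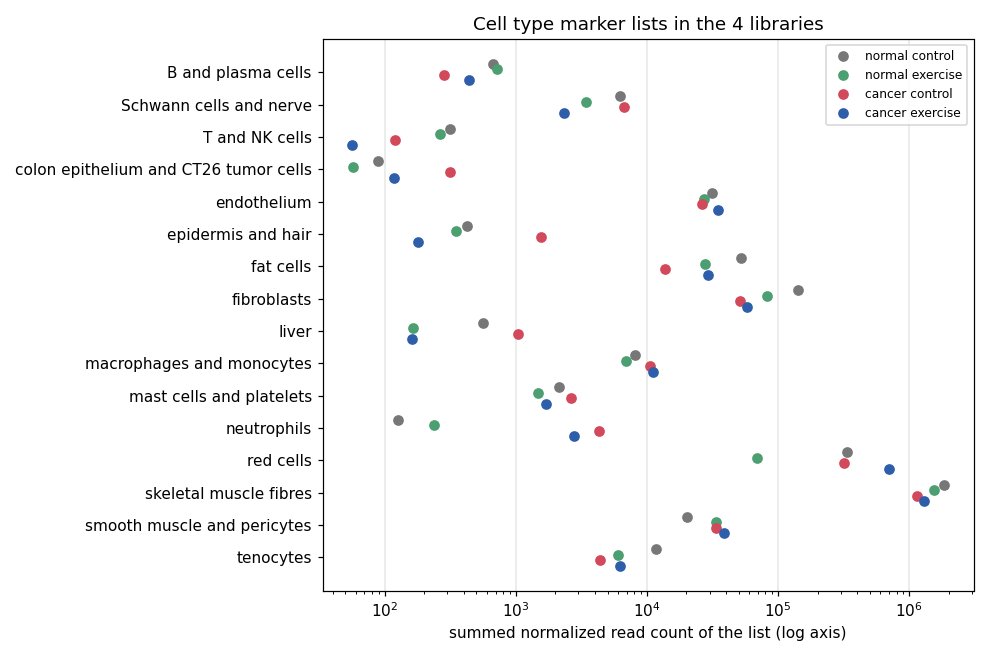
Summed normalized read counts (horizontal log axis) of 16 cell type marker lists in the 4 libraries, 1 point per library. Muscle fibre markers sum to 1142980 or more in every library, epidermal markers reach 1551 in cancer control and 178.6 in cancer exercise, and fat cell markers 13808 and 28992.

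Markers of other cell types also differed between the tumor libraries. Fat cell markers were above 0 in all 14 tested of 17, with 10 rising (median 1.45). Fasn, the fatty acid synthase and a member of the lipid synthesis list, rose with them, with counts of 2897 and 5877 without a tumor and 134 and 1119 with it, as did Elovl6, a fatty acid elongase, from 21.5 to 84.5. The sterol enzymes Lss and Fdft1 were lower, Fdft1 at 2548 in cancer control against 1335 in cancer exercise, and the whole lipid synthesis list had 4 rises and 2 falls among 30. The part of fat cell RNA in Lipe, Fasn and Cfd was not tested. Red cell markers were above 0 in all 13 tested, with 11 rising. Endothelial markers rose in 2 of 17 and fell in none, and pericyte and smooth muscle markers rose in 3 of 13.

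Epidermal markers fell in 14 of 15 tested (median -4.55, and -6.22 to -1.4 over the alternative scalings, pseudocounts and minimum levels). Of 36 with a row, 27 had no reads in cancer exercise. All 15 tested were lower in cancer exercise, so each reached the minimum of 16 through cancer control. A gene present in cancer control alone can only be lower in cancer exercise, so these figures are partly set by that minimum. Krt17, a keratin of hair and wounded skin, had 15 and 0 reads without a tumor and 56 and 0 with it. Of 36 epidermal genes 11 had no reads in cancer control, 22 none in normal control and 24 none in normal exercise, so that the cancer control library stood apart from the other 3. Schwann cell and nerve markers fell in 7 of 9. Mbp, a myelin protein, was at 1657 and 877 without a tumor and 1809 and 520.0 with it, lowest in cancer exercise. Mast cell and platelet markers fell in 4 of 9. Of 4 tested markers of colon epithelium and tumor cells, 3 fell and 1 rose, the latter by 2.14 on the log2 scale. The summed count of the 16 listed was 312.2 for cancer control against 118.1 for cancer exercise. Which cells these reads came from was not tested, so they are no measure of tumor cells in the muscle. Without the genes of all marker lists other than muscle fibres, 1512 rows rose and 1378 fell.

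The 12 largest rises all had no reads in cancer control, and the 12 largest falls other than Bpifa1 and Igfbp1 had none in cancer exercise. Among the rises, Stxbp4, which acts in glucose transporter traffic, had 183 and 239 reads without a tumor and 0 and 51 with it, and Kbtbd8, a ubiquitin ligase adaptor, 61 and 125 reads without a tumor and 0 and 49 with it. Arhgap42 and Wdr59 were likewise without reads in cancer control and present in the other 3 libraries, Wdr59, a regulator of mTOR, with 38 and 55 reads without a tumor and 0 and 38 with it. Among the falls, Phf11c had 11 and 21 reads without a tumor and 56 and 0 with it, and Bpifa1, an airway secretory protein, 2 and 0 reads without a tumor and 174 and 2 with it. In all, 198 rows that rose had at most 3 reads in cancer control and 239 rows that fell had at most 3 in cancer exercise, and for these a fold is a lower bound.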

How the data were processed

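Total RNA of gastrocnemius muscle was sequenced by the authors with QuantSeq 3′ mRNA-Seq, 1 library per group. Per the methods and the submitters' processing notes, reads were aligned to mm10 with Bowtie2, counted with bedtools coverage and quantile normalized in edgeR, and the deposited unit is log2(normalized read count + 1). Tool versions, the strand setting and the handling of reads with several matches are not given in the sources used here. Normalized counts are 2 to the power of the deposited log2 value, less the pseudocount of 1. Whole reads per row were rebuilt by inverting the quantile adjustment (fitted dispersion 0.339), which returned 100.0% of the deposited log2 values within 0.0006. Reads were chosen to give these values, so that fit is no check of the reads. In each library 95.5 to 96.6% of rows fitted only a single read number. On simulated data the procedure recovered 97.4% of read numbers. Rows with a normalized count of at least 16 in either tumor library were compared, and a 2-fold difference was called. Intervals are 95% exact Clopper-Pearson intervals of a gene's share of its reads in the pair, carried to the deposited scale, and hold only the error of counting reads. Where a side had 3 reads or fewer, the gene is given by its reads or by a fold at a floor of 3 reads.

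Members and lists were chosen with earlier results of these data known. A gene can belong to several lists, so the counts of different lists are not independent of each other. Named genes are the 12 largest rises and falls, up to 4 most abundant and 6 most different members per list, and 13 genes that the study names as examples of those it picked from these libraries, and all others are said to be chosen after their values were seen. Some genes that this rule names are not reported here. The table holds 23282 rows, and 79 of them share a symbol with another row. Scaling, pseudocount, minimum level and fold were varied. Calculations used Python 3.11.15, numpy 2.4.6, scipy 1.17.1, pandas 2.3.3 and matplotlib 3.10.9.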

Additional observations from a re-analysis of the deposited data

Results flagged for a closer look

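With 1 library per group, the median log2 difference of exercise minus control in each of the following lists had opposite directions with and without a tumor. None of these differences was tested, and 7 of 77 lists are given because, with at least 8 members compared on each side, their medians were 0.5 or more from 0 in opposite directions. Slow fibre genes had a median of -0.83 with a tumor and 0.76 without it, a difference of -1.59. Fast fibre genes were at 0.7 and -0.55, a difference of 1.25. Fibrillar and associated collagens were at 1.16 and -1.22 (difference 2.38), and small leucine-rich proteoglycans at 0.85 and -0.63 (difference 1.48). Fibroblast markers were at 0.5 and -0.94 (difference 1.44), fat cell markers at 1.45 and -0.83 (difference 2.28), and red cell markers at 1.22 and -2.16 (difference 3.38). The collagen and proteoglycan lists share genes with the fibroblast markers, and hemoglobin rows are near-identical copies, so these lists are not independent of each other.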

How the results depend on the processing

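Under the main settings 1548 rows rose and 1418 fell. No named gene at least 2-fold apart reversed its direction, and 296 of 308 named rows at least 2-fold apart stayed so under every scaling. Scaling to total reads gave 1338 and 1539, so that 46.5% of called rows were higher in place of 52.2%. The balance of rises and falls thus turned, as it did when scaled to total reads without hemoglobin rows (1435 and 1460) and at 4-fold. Counts moved by over 1.5 times with the minimum and the fold, by construction, since these decide which rows are compared or called. With no minimum 2691 rows rose and 2580 fell, and with a minimum of 4 the count of falls was 2182. With a minimum of 16 in both libraries 955 rose and 768 fell, and with a minimum of 64 in 1 library 879 and 750. At 1.5-fold 2857 rose and 2656 fell, and at 4-fold 456 and 483. The median of 6 of 77 lists changed sign under an alternative, those of myogenic factors, PGC-1 and related regulators, myokines, MHC class II, chemokines and neutrophil markers, all within 0.26 of 0 at the main settings. The medians of several marker lists ranged widely over the alternatives, from -6.22 to -1.4 for epidermis, -2.93 to -1.65 for liver, -2.19 to 0.0 for T and NK cells, -2.24 to 0.0 for colon and tumor cells, -1.8 to -1.12 for Schwann cells, -0.66 to -0.07 for mast cells and platelets and 0.01 to 0.65 for B and plasma cells. Scalings without hemoglobin rows and counts without marker genes were chosen after seeing the data. No paired analysis was possible because each group holds 1 library, and for the same reason no replicate could be left out. Depth limits the rows with at most 3 reads on a side, whose folds are lower bounds, and no value here carries an error between animals.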

Other observations

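Genes of the airway and lung, chosen after their values were seen, had reads in the muscle libraries of tumor-bearing mice. Scgb1a1, a secretory protein of club cells, had normalized counts of 24.5 and 7.94 without a tumor and 168 and 251 with it, and Scgb3a1, a related secretoglobin, 6.43 and 7.94 without a tumor and 369 and 181 with it. Scgb3a2 had 6 and 0 reads without a tumor and 69 and 0 with it, Sftpb, a surfactant protein, 0 and 4 reads without a tumor and 24 and 40 with it, and Sftpa1, another surfactant protein, 0 and 0 reads without a tumor and 21 and 6 with it. These genes did not share a direction between the tumor libraries, with log2 differences of 0.58 for Scgb1a1 and -1.02 for Scgb3a1. Lung tissue of the 4 groups was also sequenced in the study. Mup2, a major urinary protein made by liver, was at 72.3 and 13.6 without a tumor and 16.1 and 71.4 with it, higher in cancer exercise, while the liver markers as a list were lower there. Mup genes are near-identical copies, so the split of reads among them is uncertain.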
